A study of Mus musculus with 24 samples.

Results

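The solute carrier (Slc) transporters of mouse liver were described over 8 groups of male C57Bl/6J mice that differed in diet, inhaled vinyl chloride (VC) and time. The members were all gene symbols made of Slc, a family number, a letter and a member number whose counts summed to at least 100 over all 24 libraries, leaving out Slc10a1 and Slc2a2. This gave 93 members of 24421 genes in the count table. Of 358 symbols of that form, 95 reached the minimum, 263 did not, and 76 had 0 counts. The members were thus selected on their summed counts, so the overall levels given here are a description with no test.

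The m12_WD+VC group had a Western diet with 42% fat and had inhaled VC, and m12_WD had the same diet with air. The m12_CD+VC group had a low-fat control diet with 13% fat and had inhaled VC, and m12_CD had that diet with air. These 4 groups had been exposed to VC or air for 12 weeks and then housed for 9 further months. The w12_WD+VC, w12_WD, w12_CD+VC and w12_CD groups had the same diets and exposures and were taken directly after the 12 weeks. VC, an industrial monomer that the liver oxidises, was inhaled at about 0.85 ± 0.1 ppm, 6 hours daily and 5 days weekly. All mice were fasted for 4 hours before sampling. Each group had 3 libraries, and since no label ties a library to a separate mouse, the p-values reflect variation among these libraries, which may be technical.

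Solute carriers are membrane proteins that move small molecules across membranes, by facilitated diffusion or coupled to an ion or a second solute. In hepatocytes they sit on the sinusoidal membrane for uptake, on the canalicular membrane for release into bile, and on mitochondria, lysosomes, endoplasmic reticulum and Golgi for traffic inside the cell. The liver depends on them to take up amino acids, fatty acids, vitamins and organic cations, to exchange metabolites with mitochondria and to export metals.

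The libraries were shallow. Library 3 of w12_WD had 607 counts, against 126160 to 962493 in each of the other 23, so that 1 count equalled 1.04 to 7.93 CPM (counts divided by the library's total counts, scaled to a total of 1e6) and the limit that a count of 0 allows, 3 counts, equalled 3.12 to 23.8 CPM. Levels below are CPM of all counts of a library, as mean ± SD (n = 3), and for w12_WD the 2 deeper libraries (n = 2). Fold changes are log2 values ± SE of the edgeR fit to all 24 libraries. Groups whose libraries did not overlap were common over all tested genes. Their share was 38.4% in m12_WD against m12_CD, 30.8% in m12_CD+VC against m12_CD and 24.7% in m12_WD+VC against m12_CD+VC. It was 18.5% in m12_CD against w12_CD and 15.7% in w12_WD+VC against w12_CD+VC. Members took 0.569% to 0.788% of the counts of those 23 libraries. Just inside the minimum were Slc35d1 with 100, Slc16a13 with 107 and Slc12a4 with 108 counts, and just outside were Slc38a2 with 91, Slc25a42 with 90 and Slc13a4 with 89. The expression filter kept 85 members for testing, and left out Slc25a20, Slc43a1, Slc39a1, Slc40a1, Slc16a4, Slc17a2, Slc12a4 and Slc35d1.

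The promoters of 3 genes are shown because these were called in the most comparisons. Each is the RefSeq window on GRCm38.p6 with 250 bases before and 50 after the annotated start, read along the gene's strand, and capitals mark motif matches on either strand. The Slc22a3 window lies on the minus strand at chr17:12507655-12507954, the Slc27a2 window on the plus strand at chr2:126552774-126553073, and the Slc25a39 window on the minus strand at chr11:102407468-102407767.
Slc22a3: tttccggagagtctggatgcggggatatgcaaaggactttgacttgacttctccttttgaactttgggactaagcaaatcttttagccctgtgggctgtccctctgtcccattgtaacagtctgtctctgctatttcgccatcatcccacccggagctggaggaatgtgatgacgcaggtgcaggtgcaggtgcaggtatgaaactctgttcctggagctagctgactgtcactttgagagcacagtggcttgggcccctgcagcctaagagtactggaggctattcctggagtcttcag
Slc27a2: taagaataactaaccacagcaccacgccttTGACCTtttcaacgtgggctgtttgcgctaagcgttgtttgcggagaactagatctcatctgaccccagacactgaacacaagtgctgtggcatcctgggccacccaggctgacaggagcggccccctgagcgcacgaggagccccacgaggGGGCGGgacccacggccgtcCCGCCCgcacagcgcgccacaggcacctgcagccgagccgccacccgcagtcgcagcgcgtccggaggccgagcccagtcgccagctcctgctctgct
Slc25a39: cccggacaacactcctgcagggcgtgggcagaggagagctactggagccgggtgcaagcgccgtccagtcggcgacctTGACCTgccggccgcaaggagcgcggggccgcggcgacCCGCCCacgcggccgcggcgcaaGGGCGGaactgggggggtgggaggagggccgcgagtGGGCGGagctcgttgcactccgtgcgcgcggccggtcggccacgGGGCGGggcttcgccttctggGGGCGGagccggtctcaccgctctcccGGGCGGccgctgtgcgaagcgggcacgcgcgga

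A first set of 10 motifs had 0 matches in these 3 windows, and 3 further motifs were added after the sequences had been seen, so the 10 matches shown come from motifs picked with the letters in view. The added motifs were the nuclear receptor core AGGTCA, the GC box GGGCGG and the TATA box TATAAA. The nuclear receptor core, which the longer direct repeat below contains, was in the Slc27a2 and Slc25a39 windows, and the GC box was 2 times in the Slc27a2 window and 6 times in the Slc25a39 window. Over all 32851 RefSeq windows, 16.3% held that core, 35.7% the GC box and 13.6% the TATA box. Of 103 windows of the 68 members found in that table, 21 held that core, 65 the GC box and 12 the TATA box. From the first set, CCAAT was in 38 of the 103 and in 37.4% of all windows, the antioxidant response element TGACNNNGC in 20 and 12.4%, and the E-box CACGTG in 14 and 7.15%. The metal response element core TGCGCAC was in 8 and 3.73%, the amino acid response element core TGATGCAA in 3 and 0.895%, the NRF1 motif in 2 and 0.971%, and the HNF4 core CAAAGTCCA in 1 and 0.475%. The direct repeat DR1 and the C/EBP palindrome TTGCGCAA were in 0, against 0.0396% and 0.183% of all windows. A match describes letters only, and Slc22a3 has none of the 13 in this window.

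Levels per length checked the label. Divided by exon length, the highest mean levels over the 23 deeper libraries were 313 CPM per kb for Slc5a2, the sodium-glucose carrier known from kidney, and 289.7 for Slc5a6, the multivitamin carrier for biotin and pantothenate. Slc3a1, the heavy chain of the renal cystine carrier, had 158 CPM per kb, and Slc7a10, a small neutral amino acid exchanger known from brain and fat, had 87.0. Among carriers well known in hepatocytes, Slc27a2 had 86.6, the phosphate and urate carrier Slc17a1 76.3, the bile acid ligase Slc27a5 68.9 and the mitochondrial carrier Slc25a47 53.0 CPM per kb. The top of this order therefore holds several carriers known chiefly from other tissues, which goes against a plain reading of the members as liver transporters.

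Exons of 42 members overlap a gene on the opposite strand, and these 42 held 69.8% of the members' counts. The kit named in the labels does not mark strand and no source used here states how strand was treated in counting, so reads of a member and of its opposite-strand neighbour cannot be told apart. Over the whole table such entries were 23.73% of genes and held 78.48% of counts. Slc3a1 overlaps Prepl over 26.46% of its exon bases, and the Prepl entry held 20815 counts against 3049 for Slc3a1. Slc22a3 overlaps Plg, the plasminogen gene, over 9.31%, with 4379 counts for Plg and 501 for Slc22a3. Slc15a3 overlaps Tmem132a over 28.06%, with 5481 counts for Tmem132a and 255 for Slc15a3. For Slc5a2 and Slc5a6 the neighbours held few counts, 35 for BC017158 and 98 for Atraid, against 7976 and 10261. Slc7a10 likewise overlaps Lrp3, with 49 counts for Lrp3 and 1602 for Slc7a10. With the strand treatment unknown, few counts in a neighbour entry do not show which gene the reads came from. This was not tested.

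The share of all counts in entries without such an overlap differed by group. It was 20.73% ± 2.42 in m12_WD+VC, 25.94% ± 3.89 in m12_WD, 26.65% ± 4.63 in m12_CD+VC and 15.64% ± 3.56 in m12_CD (SD, n = 3 each), and 15.16% to 17.17% on average in the w12 groups. The fold changes also depended on scaling. Size factors by relative log expression (RLE) shifted the median of all genes by 0.39 for diet in air at 12 months and 0.41 for past VC on control diet. The shift was -0.123 for diet after VC, -0.126 for time and -0.507 for the interaction. A link between this shift and the share above was not tested. The part of this shift in the calls below was not tested beyond the scalings given.

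Across the 8 groups, 19 of 85 tested members, 22.4%, differed (edgeR quasi-likelihood test, adjusted p under 0.05 over 4198 genes), against 29.7% of all genes. They were spread over 8 of the 10 substrate classes, and neither the sugar nor the fatty acid class held one. By adjusted p they began with Slc22a3 at 2.8e-05, the ER acetyl-CoA carrier Slc33a1 at 0.00010, the mitochondrial carrier Slc25a39 at 0.00032, the low-affinity copper carrier Slc31a2 at 0.00044 and the lysosomal peptide and histidine carrier Slc15a3 at 0.00052. Next came Slc18a2, the vesicular monoamine carrier, Slc16a5, Slc25a47, Slc44a3, the manganese exporter Slc30a10, Slc38a10, Slc25a44, Slc22a7, Slc35g2, Slc28a1, Slc6a6, Slc16a11, Slc7a7 and Slc24a5. Of the 19, 14 kept their call without any 1 library and 9 were also called by DESeq2, which gave 1 no adjusted p. Slc28a1 was lost without m12_CD 2 or 3, Slc6a6 without m12_WD 2 or m12_WD+VC 2, and Slc16a11 without w12_WD+VC 2 or m12_WD 2, with adjusted p up to 0.0744, 0.107 and 0.0759. Slc7a7 was lost without w12_CD 2 or 3, w12_CD+VC 1 or 3, w12_WD+VC 2, m12_CD 2 or any m12_CD+VC library, with adjusted p up to 0.0747. The highest group mean lay at 12 months for 10 of the 19 and at 12 weeks for 9.

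Organic cation and anion carriers were led by Slc22a3, the organic cation transporter OCT3, which takes up monoamines and cationic drugs (chromosome 17, 12418960 to 12507704). Its levels at 12 months were 35.4, 29.6 and 33.4 CPM in m12_WD+VC, 16.7, 31.9 and 13.5 CPM in m12_WD, 39.6, 31.7 and 33.8 CPM in m12_CD+VC, and 229, 189 and 36.2 CPM in m12_CD. Libraries 1 and 2 of m12_CD stood far above all other 12-month libraries, while library 3 lay close to them. At 12 weeks the levels were 26.5, 28.2 and 6.58 CPM in w12_WD+VC, 38.0 and 22.1 CPM in w12_WD, 52.2, 256 and 141 CPM in w12_CD+VC, and 38.7, 41.1 and 105 CPM in w12_CD. No Western diet library at either time reached 39 CPM, and libraries on control diet ranged widely within 3 of their 4 groups.

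Slc22a3 fell in m12_WD against m12_CD, by 3.33 ± 0.57 on the log2 scale (edgeR adjusted p = 9.9e-05), and the call held without any 1 library, with adjusted p up to 0.00125. It also fell in m12_CD+VC against m12_CD, by 2.45 ± 0.57 (edgeR adjusted p = 0.0158), where the groups overlapped, and that call was lost without m12_CD 1 or m12_CD+VC 2, with adjusted p up to 0.124, and with DESeq2. These 2 comparisons share their m12_CD libraries. In w12_WD+VC against w12_CD+VC, which share none with them, it fell by 2.56 ± 0.60 (edgeR adjusted p = 0.0367) with no overlap of the groups. That call remained in 1 of 6 fits without 1 library, being lost without w12_CD+VC 2 or 3 or any w12_WD+VC library with adjusted p up to 0.269, and it was lost with RLE factors. For w12_WD against w12_CD the log2 change was -1.09 ± 0.69 (edgeR adjusted p = 0.942).

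Plg, the opposite-strand neighbour with more counts, went the other way in the comparisons with m12_CD at 12 months. Plg rose in m12_WD against m12_CD by 0.91 ± 0.32 on the log2 scale (edgeR adjusted p = 0.0324) and in m12_CD+VC against m12_CD by 1.09 ± 0.32 (edgeR adjusted p = 0.0452). Plg had 792, 855 and 633 CPM in m12_WD and 787, 1205 and 601 CPM in m12_CD+VC, against 169, 419 and 365 CPM in m12_CD. At 12 weeks, in w12_WD+VC against w12_CD+VC, its log2 change was -0.68 (edgeR adjusted p = 0.454), the same sign as for Slc22a3. Between m12_WD+VC and m12_CD+VC, Plg averaged 491 ± 62.8 and 864 ± 309 CPM. Slc22a3 had 35.4, 29.6 and 33.4 CPM in m12_WD+VC and 39.6, 31.7 and 33.8 CPM in m12_CD+VC.

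**Figure D1:**
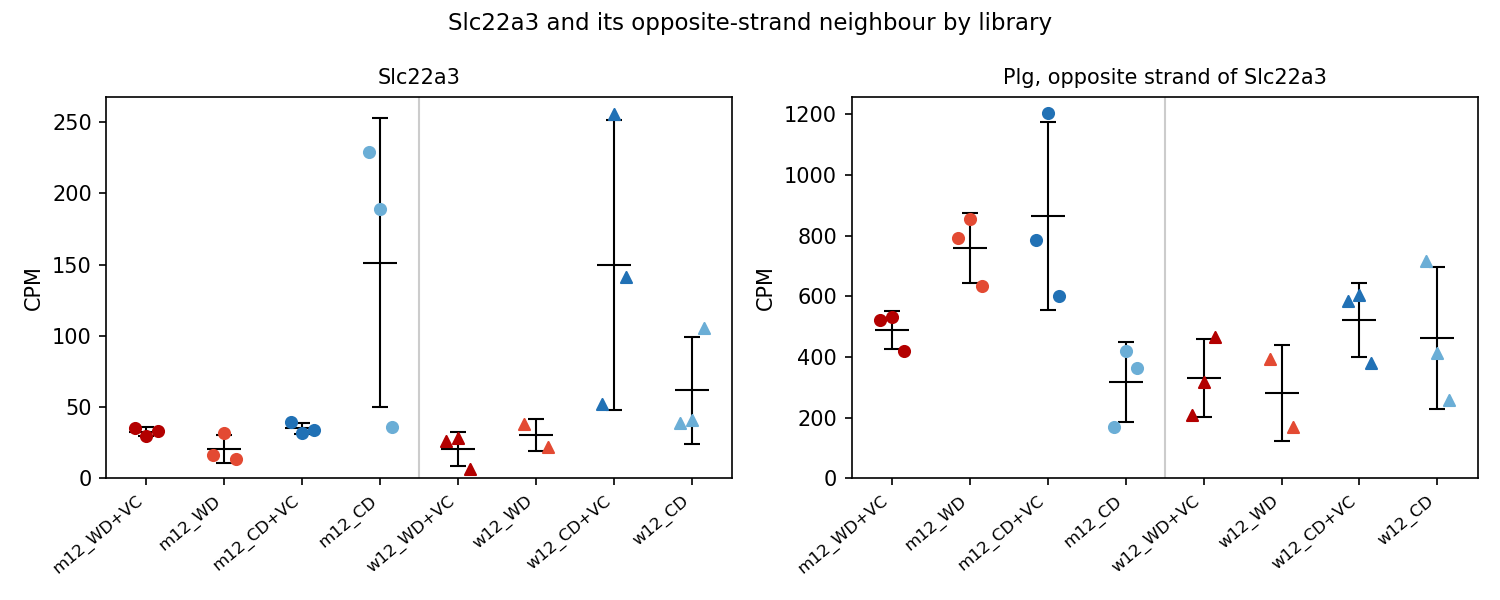
CPM of Slc22a3 (left) and Plg (right) in each library of the 8 groups, with circles for 12 months and triangles for 12 weeks, and bars for the group mean and SD; w12_WD has its 2 deeper libraries. Slc22a3 lay between 13.5 and 31.9 CPM in m12_WD and between 36.2 and 229 CPM in m12_CD, while Plg was lowest on average at 12 months in m12_CD.

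The other organic ion carriers gave 1 further pairwise call. Slc18a2, which loads monoamines into vesicles, had 69.3, 102 and 41.4 CPM in m12_CD, against 197, 253 and 145 CPM in w12_CD. All 3 m12_CD libraries lay below all 3 w12_CD libraries, and it fell by 1.34 ± 0.32 on the log2 scale (edgeR adjusted p = 0.0222), the one call of the time comparison, where 1.62% of all genes were called, 0.929% lower. The call was lost without w12_CD 2 or m12_CD 3, with adjusted p up to 0.149, and with no expression filter. Slc22a7, the organic anion carrier OAT2, ranged between group means of 5.43 CPM in m12_WD and 52.5 CPM in w12_CD+VC and was called only over the 8 groups, with DESeq2 at an adjusted p of 0.106.

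Western diet in air at 12 months gave the most calls. In m12_WD against m12_CD, 12 of 85 members were called, 6 higher and 6 lower, which is 14.1% against 24.5% of all genes, or 13.4% higher and 11.1% lower. The split depends on the scaling: RLE factors gave 14 higher and 5 lower, separate scaling of entries with and without an overlap gave 4 higher and 11 lower, and DESeq2 gave 5 higher and 2 lower, while 0 of the called members turned direction under any alternative. Among members with an overlap 8 of 41 were called, against 24.1% of all genes with one, and among those without 4 of 44, against 24.6% of all genes without. Those 8 were Slc15a3, Slc22a3, Slc27a2, Slc33a1, Slc44a3, Slc48a1, Slc5a6 and Slc6a6. Slc16a5 and Slc18a2, called in other comparisons, also have an overlap. Only Slc15a3, Slc22a3, Slc28a1, Slc33a1 and Slc44a3 kept this call without any 1 library.

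Among 8 tested vitamin, choline, nucleoside and cofactor carriers, 3 fell and 1 rose in that comparison, where 11.1% of all genes fell and 13.4% rose. Slc44a3, a choline transporter-like protein, had 7.40, 34.4 and 17.7 CPM in m12_WD, against 30.1, 91.4 and 69.9 CPM in m12_CD, overlapping in 1 library, and fell by 2.08 ± 0.46 on the log2 scale (edgeR adjusted p = 0.00141). Slc28a1, the concentrative carrier of pyrimidine nucleosides, had 22.2, 31.9 and 34.3 CPM in m12_WD, against 33.1, 111 and 101 CPM in m12_CD, also overlapping in 1 library, and fell by 1.79 ± 0.47 (edgeR adjusted p = 0.00597). Neither was called by DESeq2. Slc5a6 fell by 0.79 ± 0.29 (edgeR adjusted p = 0.0416), with 925, 1046 and 1502 CPM in m12_WD and 1629, 1329 and 1638 CPM in m12_CD. The groups overlapped, and that call was lost with RLE factors, with no filter, with DESeq2, and without m12_CD 1 or 3 or m12_WD 1 or 2, with adjusted p up to 0.125. Slc48a1, a heme carrier of lysosomes, rose by 1.85 ± 0.59 (edgeR adjusted p = 0.0207), with 27.8, 61.4 and 45.7 CPM in m12_WD, all above the 15.1, 10.6 and 2.59 CPM in m12_CD. Its call was lost with no filter and without m12_CD 2 or 3 or m12_WD 2, with adjusted p up to 0.11. The call rested on 84 counts in m12_WD and 11 in m12_CD. Hdac7, on the strand opposite Slc48a1, held 263 counts against 219 over all libraries. In the same comparison Hdac7 had a log2 change of 1.03 ± 0.54 (edgeR adjusted p = 0.158).

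Among 16 tested carriers of amino acids and peptides, Slc15a3 and Slc6a6 rose in m12_WD against m12_CD and none fell. Of all genes 13.4% rose and 11.1% fell. Slc15a3, known from immune cells, had 20.4, 44.2 and 68.6 CPM in m12_WD, against 0, 6.38 and 5.17 CPM in m12_CD, where the 3 libraries held 5 counts in all. The groups did not overlap, and it rose by 3.02 ± 0.68 on the log2 scale (edgeR adjusted p = 0.00167). The ratio of its summed counts was 11.8 with an exact 95% interval of 4.89 to 37.3, which covers counting error only. Tmem132a, its neighbour on the other strand, rose in the same comparison by 1.11 ± 0.37 (edgeR adjusted p = 0.0289). Slc6a6, the taurine carrier, had 40.7, 108 and 61.3 CPM in m12_WD, all above the 12.0, 23.4 and 18.1 CPM in m12_CD, and rose by 1.55 ± 0.53 (edgeR adjusted p = 0.0297). That call was lost with no filter, with DESeq2, and without any 1 m12_CD library or m12_WD 2, with adjusted p up to 0.159.

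Markers of several cell types, those of macrophages and Kupffer cells among them, moved with these carriers. Of 11 such markers 8 were tested and 5 rose in m12_WD against m12_CD (C1qa, C1qb, C1qc, Cd5l and Lyz2), and the sum of the list was 549 to 791 CPM in m12_WD and 66.2 to 135 CPM in m12_CD. Clec4f, the marker that defines Kupffer cells, averaged 52.7 CPM in m12_WD and 19.1 CPM in m12_CD, and none of the 11 averaged 0 in either group. Stellate markers also rose, 2 of 3 tested with a sum of 178 to 218 CPM in m12_WD and 12.0 to 38.3 CPM in m12_CD, as did 1 of 2 endothelial markers, the 1 tested cholangiocyte marker (Spp1) and 3 of 9 hepatocyte markers, against 13.4% of all genes. In bulk tissue more cells of a type and more RNA per cell cannot be told apart, and the part of these markers in the carriers' changes was not tested.

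Slc33a1, which brings acetyl-CoA into the endoplasmic reticulum, had 3.70, 4.91 and 1.04 CPM in m12_WD, against 30.1, 21.3 and 10.4 CPM in m12_CD. It fell by 3.10 ± 0.69 on the log2 scale (edgeR adjusted p = 0.00142) with no overlap of the groups, and rested on 5 counts in m12_WD and 24 in m12_CD, a ratio of 0.13 with an exact 95% interval of 0.0386 to 0.347. Slc35g2, an orphan member of the nucleotide sugar carrier family, was at 56.6, 35.9 and 46.2 CPM in m12_WD+VC, all above the 17.0, 0 and 10.4 CPM in m12_CD+VC. It rose by 1.98 ± 0.54 (edgeR adjusted p = 0.0493), and rested on 49 counts in m12_WD+VC and 10 in m12_CD+VC. The ratio of these summed counts was 3.61 with an exact 95% interval of 1.81 to 8.0. The call was lost without any 1 of these 6 libraries, with adjusted p up to 0.168, and under 5 of the 6 other settings. Slc35e2, the class member with most counts, ranged between 45.6 ± 20.1 CPM in w12_WD+VC and 117 ± 46.3 CPM in m12_WD+VC and was not called.

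**Figure D2:**
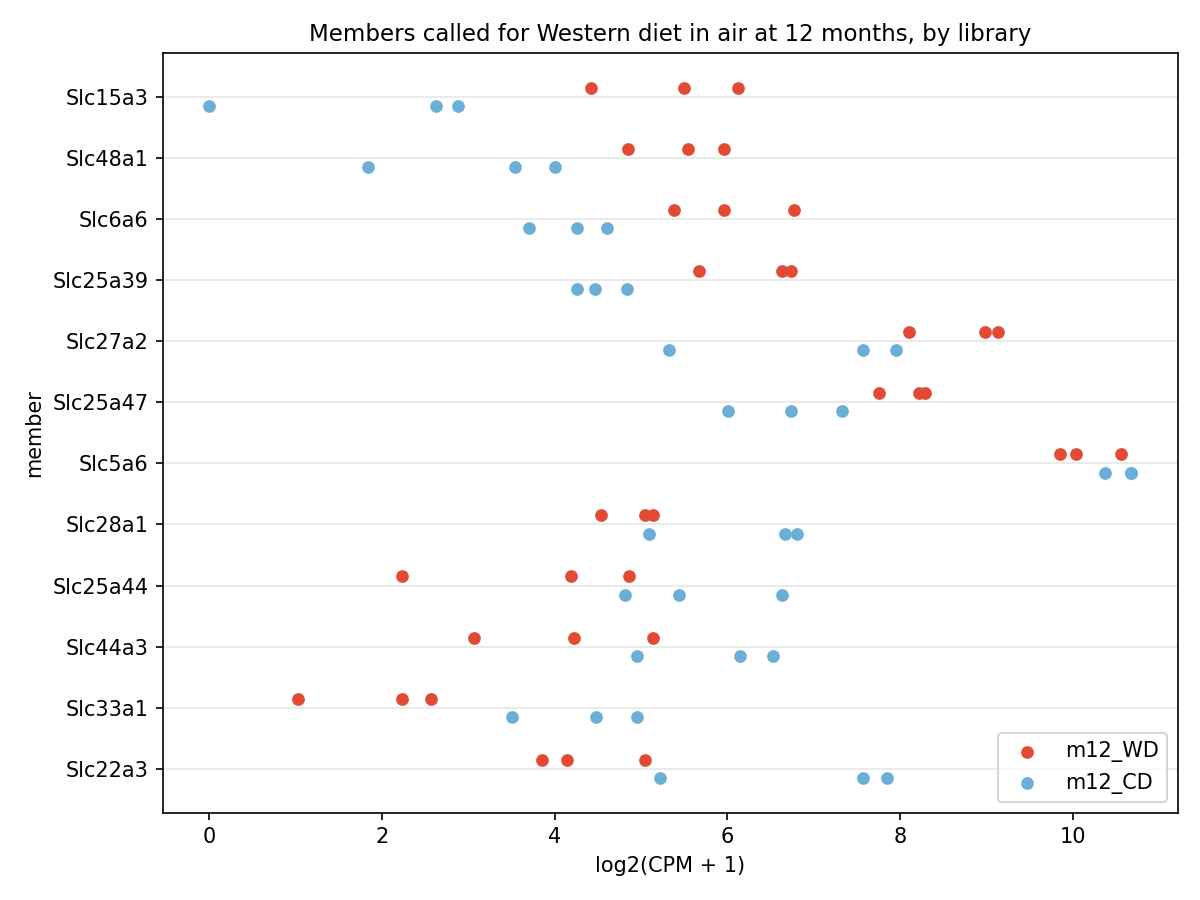
Levels of the 12 members called in m12_WD against m12_CD, as log2(CPM + 1) on the horizontal axis, with 1 point per library, m12_WD drawn above m12_CD and members ordered by fold change. The m12_WD points of Slc15a3 lie to the right of all m12_CD points, and those of Slc22a3 and Slc33a1 to the left of all of them.

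Among 16 tested mitochondrial carriers, Slc25a39 and Slc25a47 rose and Slc25a44 fell in m12_WD against m12_CD, where 13.4% of all genes rose and 11.1% fell. Slc25a39 also rose in m12_CD+VC against m12_CD, where 4.1% of all genes rose. Slc25a39, which carries glutathione into mitochondria, had 98.1, 106 and 49.9 CPM in m12_WD and 65.1, 55.5 and 117 CPM in m12_CD+VC, against 21.1, 27.6 and 18.1 CPM in m12_CD. It rose by 1.52 ± 0.43 on the log2 scale in m12_WD (edgeR adjusted p = 0.0105) and by 1.54 ± 0.45 in m12_CD+VC (edgeR adjusted p = 0.0414). Without m12_WD 1 the first call had an adjusted p of 0.0533, and it was lost with no filter and with class-wise scaling. The second was lost with no filter, with the 23 deeper libraries alone, with class-wise scaling, and without any 1 of its 6 libraries, with adjusted p up to 0.202. Slc25a47, a mitochondrial carrier found chiefly in liver, had 215, 312 and 298 CPM in m12_WD, all above the 63.2, 159 and 106 CPM in m12_CD, and rose by 0.97 ± 0.31 (edgeR adjusted p = 0.0226). That call was lost with no filter, with class-wise scaling, and without m12_CD 1 or 3 or m12_WD 2 or 3, with adjusted p up to 0.145. Slc25a44, the carrier of branched-chain amino acids, had 3.70, 17.2 and 28.1 CPM in m12_WD, against 27.1, 42.5 and 98.3 CPM in m12_CD, with an overlap of the groups. It fell by 2.04 ± 0.57 (edgeR adjusted p = 0.00982), a call lost without m12_CD 3, at 0.122, and with DESeq2.

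The 16 tested mitochondrial carriers had a median log2 change of 0.69 in m12_CD+VC against m12_CD, with 13 above 0, where the median of all genes was 0.07. In m12_WD+VC against m12_CD+VC, which shares the m12_CD+VC libraries, the median was -0.65 with 2 above 0, and that of all genes was -0.01. Just 1 of the 16 was called in the first comparison and 0 in the second. All genes without an opposite-strand overlap had medians of 0.58 and -0.23 in these comparisons, and all genes with one -0.30 and 0.16. The 10 tested mitochondrial carriers without an overlap had medians of 1.18 and -0.99, and the 6 with one 0.37 and -0.65. Their summed level was 625 ± 70.8 CPM in m12_WD+VC, 796 ± 147 in m12_WD, 967 ± 74.2 in m12_CD+VC and 499 ± 165 in m12_CD. Slc25a10, the dicarboxylate carrier, and Slc25a26, which carries S-adenosylmethionine, are the next by counts, with group means between 20.6 and 79.5 CPM and between 38.1 and 79.7 CPM, and neither was called. Hepatocyte markers moved the same way: the sum of 10 markers was 22060 ± 9102 CPM in m12_CD+VC and 6303 ± 3459 CPM in m12_CD, 4 of 9 tested rose against 4.1% of all genes, and in m12_WD+VC against m12_CD+VC their median log2 change was -1.08, with 1 of 9 lower against 1.1% of all genes. All 10 of these markers are entries without an opposite-strand overlap, and Ass1 among them had 0 counts. The part of these markers in the carriers' levels was not tested.

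Of the 2 fatty acid carriers, Slc27a2 was called. Slc27a2, also named FATP2, takes up long-chain fatty acids and activates very long-chain ones. It had 505, 560 and 274 CPM in m12_WD and 309, 816 and 505 CPM in m12_CD+VC, against 39.1, 247 and 189 CPM in m12_CD, and all libraries of both groups lay above all of m12_CD. The rise was 1.16 ± 0.39 on the log2 scale in m12_WD (edgeR adjusted p = 0.0290), and was lost with no filter and without m12_CD 1 or m12_WD 1 or 2, with adjusted p up to 0.207. It was 1.43 ± 0.40 in m12_CD+VC (edgeR adjusted p = 0.0346), and was lost with no filter and without m12_CD 1 or 3 or m12_CD+VC 2 or 3, with adjusted p up to 0.192. In m12_WD+VC it had 304, 389 and 269 CPM. Slc27a5, which activates bile acids and fatty acids, had group means between 119 ± 30.1 CPM in w12_WD+VC and 227 ± 12.3 CPM in w12_WD and was not called.

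For past VC on control diet at 12 months, m12_CD+VC against m12_CD, Slc27a2 and Slc25a39 rose and Slc22a3 fell, which is 3 of 85 members against 5.22% of all genes, 4.1% higher and 1.12% lower. Slc15a3 and Slc16a12 came next, at log2 changes of 2.32 ± 0.75 (edgeR adjusted p = 0.0617) and -1.40 ± 0.48 (edgeR adjusted p = 0.0729).

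Diet after past VC, m12_WD+VC against m12_CD+VC, gave 2 of 85 members, 1 higher and 1 lower, against 1.81% of all genes, 0.715% higher and 1.1% lower. Besides Slc35g2 this was Slc38a4, a neutral amino acid carrier of hepatocytes, which had 63.6, 103 and 66.7 CPM in m12_WD+VC, all below the 269, 309 and 177 CPM in m12_CD+VC. It fell by 1.58 ± 0.40 on the log2 scale (edgeR adjusted p = 0.0295), a call lost with no filter and without any 1 of these libraries except m12_CD+VC 3, with adjusted p up to 0.160. Slc25a44, the mitochondrial glutamate carrier Slc25a22 and Slc7a10 followed with log2 changes of -2.39, -2.51 and 0.88 and edgeR adjusted p of 0.0822, 0.0938 and 0.151. Slc38a3, the glutamine carrier of hepatocytes, averaged 160 ± 14.3 CPM in m12_WD+VC and 311 ± 61.4 CPM in m12_CD+VC without passing the test.

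**Figure D3:**
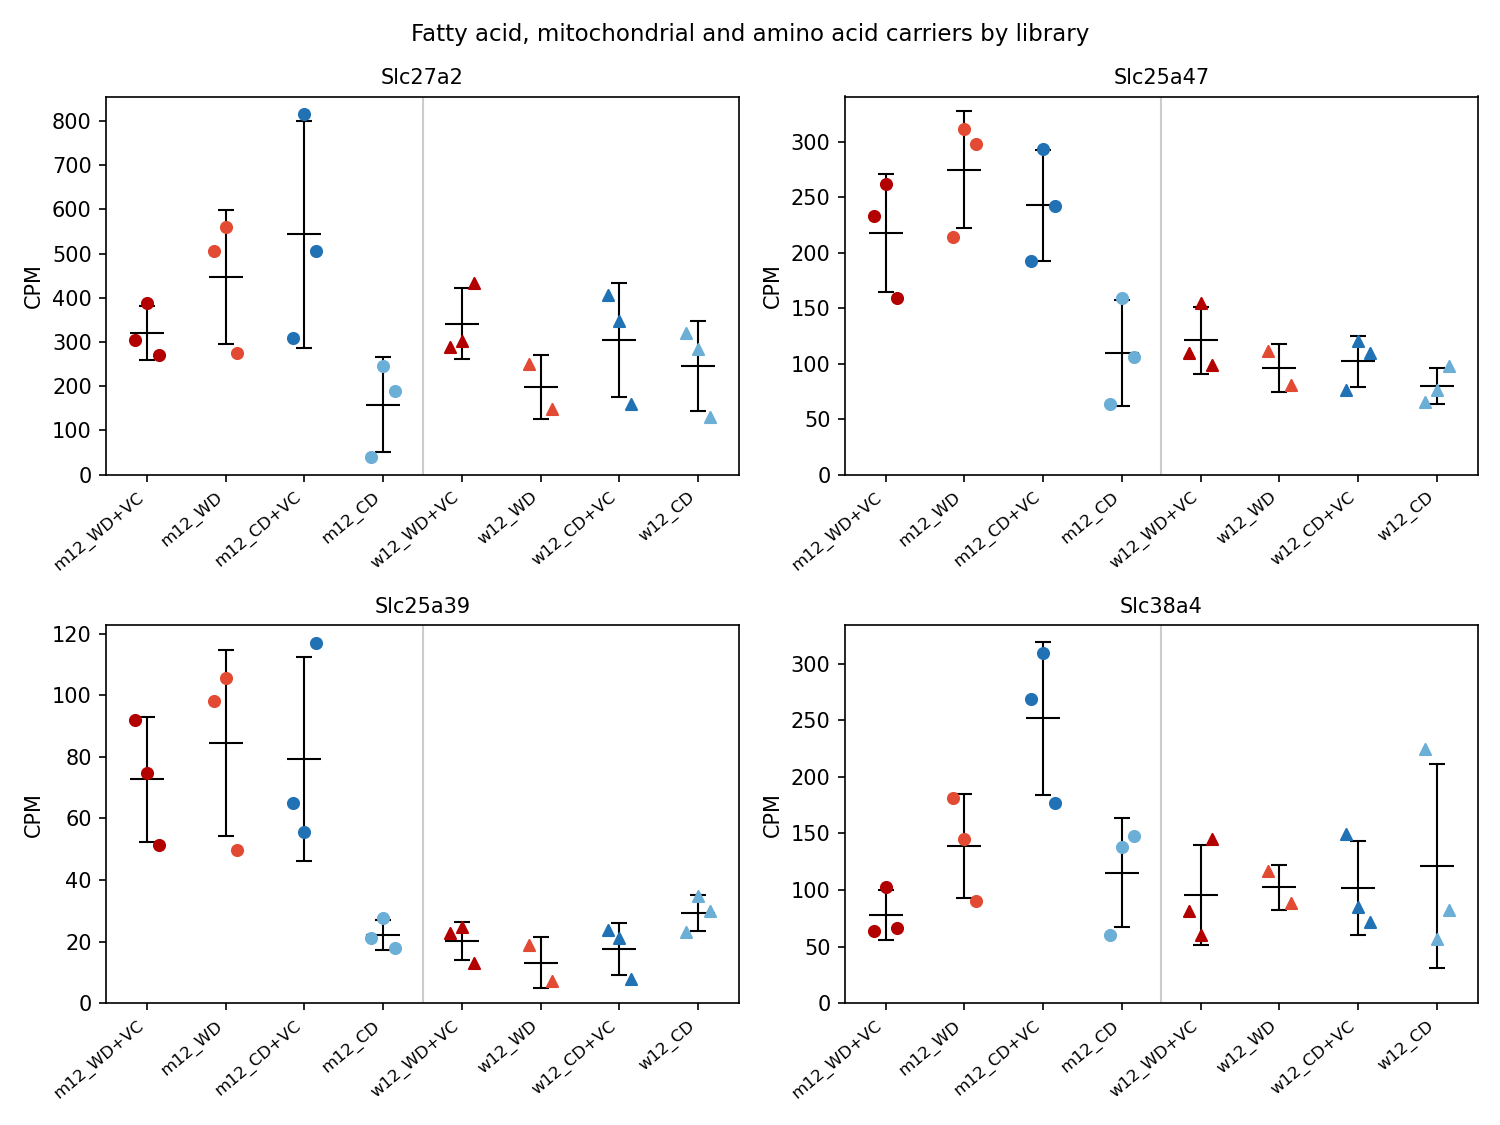
CPM of Slc27a2, Slc25a47, Slc25a39 and Slc38a4 in each library of the 8 groups, with circles for 12 months and triangles for 12 weeks, and bars for the group mean and SD; w12_WD has its 2 deeper libraries. Slc25a39 stayed at or below 27.6 CPM in m12_CD and at or above 49.9 CPM in the other 12-month groups, and Slc38a4 was highest on average in m12_CD+VC.

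The interaction asked whether the diet effect at 12 months differed between past VC and air. It was called for 2 of 85 members, Slc22a3 at 3.20 ± 0.85 (edgeR adjusted p = 0.0181) and Slc27a2 at -1.84 ± 0.55 (edgeR adjusted p = 0.0346), against 9.81% of all genes, 3.33% above 0 and 6.48% below. The diet effect on Slc22a3 was -0.13 ± 0.64 on the log2 scale after VC and -3.33 ± 0.57 in air, and that on Slc27a2 was -0.68 ± 0.39 after VC and 1.16 ± 0.39 in air. The Slc22a3 call was lost without m12_CD 1 or m12_WD+VC 3, with adjusted p up to 0.0646, and with DESeq2. The Slc27a2 call was lost without 7 of the 12 libraries, m12_CD 1, m12_CD+VC 2 or 3, m12_WD 1 or 2 and m12_WD+VC 1 or 3, with adjusted p up to 0.115, and with no filter. Plg also had an interaction, of -1.66 ± 0.45 (edgeR adjusted p = 0.0205), opposite in sign to that of Slc22a3. Slc20a1, Slc25a39 and Slc5a2 followed at 2.34, -1.73 and 1.15, with edgeR adjusted p of 0.0562, 0.0581 and 0.0581.

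At 12 weeks, w12_WD+VC against w12_CD+VC called Slc22a3 and Slc16a5, 2 of 85 members against 0.524% of all genes, 0.286% higher and 0.238% lower. Slc16a5, a member of the monocarboxylate carrier family, had 386, 211 and 46.0 CPM in w12_WD+VC, against 66.5, 7.10 and 29.3 CPM in w12_CD+VC, with 1 library of w12_WD+VC inside the other group's range. It rose by 2.61 ± 0.55 on the log2 scale (edgeR adjusted p = 0.0194), and the call was lost without w12_CD+VC 2 or 3 or w12_WD+VC 1, with adjusted p up to 0.372. At 12 months its means were 315 ± 35.3 CPM in m12_WD+VC, 279 ± 119 in m12_WD, 140 ± 82.7 in m12_CD+VC and 143 ± 42.1 in m12_CD, and it was not called in a pair.

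In 4 comparisons edgeR called 0 members, and DESeq2 also called 0 in each. These were w12_WD against w12_CD, with 2 members at an unadjusted p under 0.05 and 0.0238% of all genes called, w12_CD+VC against w12_CD, with 5 members and 0%, w12_WD+VC against w12_WD, with 3 members and 0%, and m12_WD+VC against m12_WD, with 2 members and 0.572%. The smallest p in them belonged to Slc18a2, at a log2 change of -0.89 ± 0.37, to Slc5a10 at 1.16 ± 0.39, to Slc31a2 at -1.04 ± 0.42 and to Slc33a1 at 2.35 ± 0.72, in that order. On simulated counts the test recovered 4.48% to 13.4% of genes changed 2-fold in these comparisons. It recovered 34.3% to 65.7% of those changed 4-fold, so 0 calls do not show that the members were unchanged.

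Carriers of inorganic ions, sugars and metals gave no call in a pair of groups, and monocarboxylate, dicarboxylate and citrate carriers gave none besides Slc16a5. The monocarboxylate class held 8.27% of the members' counts, led by Slc16a6, with group means between 191 ± 35.5 CPM in w12_WD+VC and 263 ± 28.9 CPM in w12_CD+VC. Carriers of inorganic ions held 9.78%, and 1 of the 12 tested, Slc24a5, differed over the groups, with means between 115 ± 26 CPM in m12_CD+VC and 215 ± 37.1 CPM in w12_CD and an adjusted p of 0.0471. That last call was lost without w12_CD 2 or 3, w12_CD+VC 1 or 3, w12_WD 1 or 2, w12_WD+VC 2, m12_CD 2 or m12_CD+VC 3, with adjusted p up to 0.118, and under 5 other settings. Slc17a1 had means between 109 ± 32.1 CPM in w12_WD+VC and 249 ± 67.5 CPM in m12_WD. Sugar carriers held 14.1%, nearly all from Slc5a2, with 1124 ± 94.6 CPM in m12_WD+VC, 898 ± 184 in m12_WD, 782 ± 197 in m12_CD+VC and 1051 ± 87.1 in m12_CD. Metal carriers held 4.17%: Slc31a2 had means between 23.3 ± 6.65 CPM in m12_CD+VC and 110 ± 31.7 CPM in w12_WD, and Slc30a10 between 3.46 ± 3.98 CPM in m12_WD+VC and 57.1 ± 39.4 CPM in w12_CD+VC, both called over the 8 groups in every fit without 1 library. Gm2061, a noncoding gene on the strand opposite Slc30a10, held 1256 counts against 185 and was also highest in w12_CD+VC, with 331 ± 120 CPM (edgeR adjusted p = 2.3e-07 over the 8 groups). It had 68.1 ± 14.7 CPM in m12_WD+VC, where Slc30a10 was lowest, and was itself lowest in m12_WD, at 22.05 ± 4.677 CPM. Oxa1l, opposite Slc7a7, also differed over the groups (edgeR adjusted p = 0.00087).

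**Figure D4:**
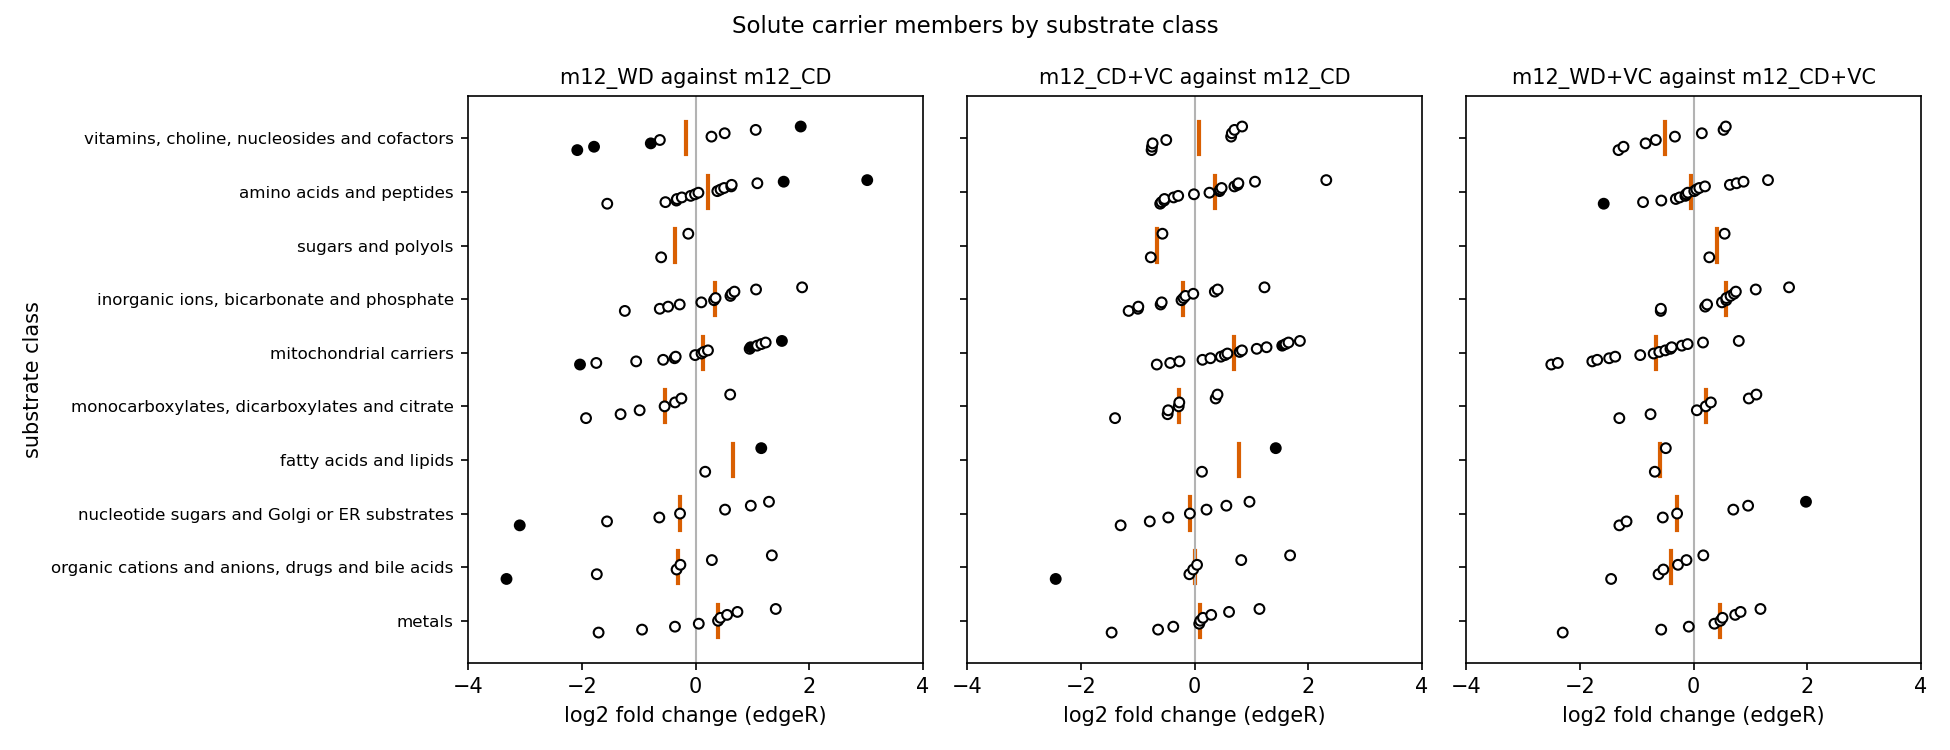
Log2 fold changes of the 85 tested members by substrate class in 3 comparisons at 12 months, with 1 point per member, filled where called, and an orange bar at the class median. The filled points number 12, 3 and 2 from left to right, and the median of the mitochondrial carriers lies at 0.69 in the middle panel and -0.65 in the right one.

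Transport genes outside the Slc families were described by lists in m12_WD against m12_CD, where 13.4% of all genes rose and 11.1% fell. Of 8 tested ATP-binding cassette exporters, 3 rose and 0 fell: Abcb4, the phospholipid exporter of bile, by 1.32, Abcc3, the basolateral conjugate exporter, by 1.99, and Abcg5, a subunit of the sterol exporter, by 2.56 on the log2 scale (edgeR adjusted p = 0.0104, 0.00097 and 0.0095). Abcg8, the other subunit, held 8591 counts against 182 for Abcg5 and was not called. It averaged 849.2 ± 75.6 CPM in m12_WD and 993.6 ± 184.5 CPM in m12_CD. Of 10 tested partners and channels, 4 rose and 0 fell, among them Bsg, the chaperone of monocarboxylate carriers, by 2.04, and Trf and Cp, proteins of iron handling, by 1.73 and 1.60 on the log2 scale. Of 12 tested transcription factors, 4 rose (Atf4, Mlxipl, Nfe2l2 and Ppara) and 3 fell, among them Cebpa and Mtf1, and of 3 organic anion transporting polypeptides 0 were called. The median log2 change was 0.99 for the exporters and 0.91 for the partners, and 0.11 over all genes. All genes without an opposite-strand overlap had a median of 0.475 and those with one -0.16, and both lists hold entries of each kind. The calls of these lists were not rechecked under the other settings or without 1 library.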

How the data were processed

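Liver RNA was depleted of ribosomal RNA and made into TruSeq RNA v2 libraries, per the labels' protocols. Trimmomatic 0.38, HISAT2 2.1.0, HTSeq 0.11.2 and mm10 were used, per the submitters' processing notes, and no source used here states the strand setting or annotation. The authors deposited raw counts per gene and, per sample, log2 values, of which 0 of 586104 differed by over 1e-06 from log2(count / size factor + 1). The counts were used.

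Counts were filtered and TMM-scaled in edgeR 4.0.16 (R 4.3.3), which left 4198 genes. One quasi-likelihood model of the 8 groups was fitted to the 24 libraries, with 11 tests, Benjamini-Hochberg adjustment over all genes and a threshold of 0.05. The test was tried on simulated counts. Alternatives were RLE factors, no filter, DESeq2 1.42.0, the replicate number as a block, 23 libraries, scaling by overlap class, and leaving out each library. Intervals and limits of 3 counts cover counting error only.

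All 93 members were placed on the GENCODE M21 annotation of GRCm38, and overlaps were found with bedtools 2.31.1. Members, classes and lists were chosen with earlier results of these data known, and 3 of 13 promoter motifs after the printed promoters were seen. Named were the 3 most counted members per class, up to 12 per direction and comparison, and, where under 5 passed, the 5 with the smallest p; values are given for a selection. A few genes and 1 motif are not reported here.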

Additional observations from a re-analysis of the deposited data

Results flagged for a closer look

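By the interaction term of the edgeR fit, the diet effect at 12 months differed between past VC and air for 2 of 85 tested members. Over all genes 9.81% were called. For Slc22a3 the difference was 3.20 on the log2 scale (adjusted p = 0.0181), with 32.8 ± 2.90 CPM in m12_WD+VC and 35.1 ± 4.10 CPM in m12_CD+VC, and 20.7 ± 9.85 CPM in m12_WD and 151 ± 102 CPM in m12_CD (SD, n = 3 each). For Slc27a2 it was -1.84 (adjusted p = 0.0346), with 321 ± 61.3 CPM in m12_WD+VC and 543 ± 256 CPM in m12_CD+VC, and 447 ± 152 CPM in m12_WD and 158 ± 107 CPM in m12_CD (SD, n = 3 each). Both contrasts contain the m12_CD libraries, whose spread for Slc22a3 was the widest of the 12-month groups. Without 1 library the Slc22a3 call remained in 10 of 12 fits and the Slc27a2 call in 5 of 12. The Slc22a3 call was also lost with DESeq2, and the Slc27a2 call with no filter.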

How the results depend on the processing

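Over the 8 groups DESeq2 called 10 members, against 19 by edgeR. For m12_WD against m12_CD, RLE factors gave 19 and DESeq2 7, against 12. For m12_WD+VC against m12_CD+VC, RLE factors, DESeq2 and the 23 libraries each gave 1 and no filter 0, against 2. For m12_CD+VC against m12_CD, RLE factors gave 5 and no filter 1, against 3. For w12_WD+VC against w12_CD+VC, RLE factors gave 1, against 2. For m12_CD against w12_CD, no filter gave 0 and class-wise scaling 2, against 1. For the interaction, RLE factors gave 7 and no filter 1, against 2. The cause was not tested. Of 66 such counts, 51 stayed within 1.5 times, and 0 of 22 called values turned direction. Without 1 library the counts ranged from 16 to 23 over the 8 groups, 9 to 15 for diet in air, 0 to 1 for diet after VC, 0 to 4 for VC on control diet, 0 to 2 for diet with VC at 12 weeks, 0 to 2 for time and 0 to 7 for the interaction. They were 0 to 0 in the other pairs.

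Libraries of the same replicate number had no higher median correlation than others. It was 0.00305 over 84 pairs of the same number, with 14 over 0.1, and 0.00505 over 168 other pairs. This does not show that the libraries were unpaired. With the replicate block, diet after VC gave 1 call, against 2, and diet in air 13, against 12. Of the members, 31 held under 200 counts over all libraries, and Slc22a7 with 188 and Slc30a10 with 185 were called over the 8 groups; the part of depth in the number of calls was not tested.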
